A study of Danio rerio with 16 samples.

Results

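The nuclear genes of the mitochondrial respiratory chain and the ATP synthase were taken as all genes whose symbol in the count tables begins with nduf, uqcr, atp5, sdha, sdhb, sdhc, sdhd, cox4, cox5, cox6, cox7 or cox8, whatever the case of the letters, and whose chromosome is not the mitochondrial one. The rule found 107 of the 31388 genes listed, 95 with lower-case symbols and 12 with symbols in capitals, spread over 25 chromosomes. By symbol, 42 belong to complex I, 6 to complex II, 8 to complex III, 21 to complex IV and 18 to complex V, and 12 are assembly or accessory factors. Of the 107 genes, 105 held enough counts to be tested. The SDHB copy written SDHB (2 of 2) and NDUFA4L2 (1 of 2) did not. The rule leaves out cyc1, a subunit of complex III. It also places ndufa4 and its paralogs in complex I by name, although in mammals the protein NDUFA4 is known as a subunit of complex IV.

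RNA came from whole zebrafish embryos, 10 per group, frozen 1 or 3 days after the day of injection (dpi), at 3 or 5 days post fertilization. Particle embryos had received into the yolk, at 2 days post fertilization, 1 nl of 700 nm red fluorescent polystyrene beads at 5 mg/ml in polyvinylpyrrolidone, mock embryos polyvinylpyrrolidone alone, and control embryos no injection. All 3 groups came from wild-type fish. Each time has 3 particle libraries (A, B and C), 2 mock libraries (A and B) and 3 control libraries (A, B and C). The labels call them biological replicates without saying how the embryos of 1 library relate to those of another, so that p-values measure the spread between these libraries. Headers of the count tables call the C libraries combined, and for both particle C libraries they give a bead of 70 nm where the labels give 700 nm. Particle against mock bears on the beads beyond injection and vehicle, and mock against control on injection and vehicle.

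Complex I oxidises NADH, complex II oxidises succinate, and both pass electrons through ubiquinone to complex III and on to complex IV, which reduces oxygen. Complexes I, III and IV pump protons, and complex V, the ATP synthase, uses the gradient to make ATP. A small core of each pumping complex is coded by mitochondrial DNA, the nucleus codes the other subunits, and embryos with working skeletal and cardiac muscle express these genes at high levels.

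Libraries held 8679739 to 19840148 counts, of which the 107 genes took 0.758% to 1.16%. Library mock_3dpi A stood apart, with a TMM scaling factor of 0.694 against 0.886 to 1.11 in the other 15, 38.8% of all its counts in the top 100 genes against 19.9% to 32%, and 8.53% in cytosolic ribosomal protein genes against 3.802% to 6.57%. For direct comparisons that hold mock_3dpi, the count of calls and the median of the members are also given without this library. Counts of genes whose libraries do not overlap, and of highest group means, are given only with it. Levels are CPM, counts relative to the library total scaled by TMM, a factor per library that makes the typical gene equal between libraries. They are compared between libraries and not between genes, because no transcript lengths were used. In RNA of whole embryos, fewer cells of a type and less RNA per cell cannot be told apart.

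At 3 dpi the mean summed level of each complex was highest in mock embryos, but in complexes II and III mock_3dpi B lay within or near the range of the other groups. Summed over the complex I genes, levels were 1948, 2376 and 2490.1 CPM in particle_3dpi A, B and C and 4128 and 2766 in mock_3dpi A and B. The controls of that day held 2637, 2527 and 2365. Complex IV sums were 1778 ± 247 CPM in particle (SD, n = 3), 2901 ± 887 in mock (SD, n = 2) and 1959.6 ± 83.5 in control embryos (SD, n = 3). With TMM scaling both mock libraries thus lay above every particle and control library in both complexes, and A lay far above B. The order differed for all members as an unscaled share of counts. That share was 1.16% and 0.997% in mock_3dpi A and B and 0.829%, 0.981% and 1.08% in particle_3dpi A, B and C. In control_3dpi A, B and C it was 1.01%, 1.03% and 1.04%, so that mock_3dpi B lay below every control. Complex V sums were 3911, 4519 and 4642 in particle, 7195 and 4824 in mock and 4718, 4637 and 4348 in control embryos, and there mock_3dpi B lay little above the nearest particle and control libraries. Complex II sums were 271, 340.0 and 313 in particle, 423 and 349.9 in mock and 352, 332 and 313 in control embryos, with mock_3dpi B below control_3dpi A. Complex III sums were 617, 829.6 and 903 in particle, 1224 and 905 in mock and 871, 821 and 875 in control embryos, with mock_3dpi B about level with particle_3dpi C.

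The group mean was highest in mock_3dpi for 85 of the 105 members tested, and lowest in control_1dpi for 54 and in particle_3dpi for 25. The order of group means was not counted over all genes, so that these counts have no background beside them. Library mock_3dpi A held the highest level of all 16 libraries for 81 of the 105 members (77.1%), beside 19.9% of all genes tested. Measured as the median deviation of a gene from its own mean over the libraries, complex IV stood at 0.92 on the log2 scale in mock_3dpi A and 0.32 in mock_3dpi B. Complex II stood at 0.66 and 0.08 in the same libraries. Particle_3dpi A was the low library of its group, at -0.50 for complex III and -0.32 for complex I, against 0.05 and 0.05 in particle_3dpi C. Control_1dpi C was the low library of its group, with 7390 CPM summed over all members, beside 10228 and 9219 in control_1dpi A and B. Particle_1dpi C was likewise low, with 7875 CPM beside 10479 and 10310 in particle_1dpi A and B.

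**Figure D1:**
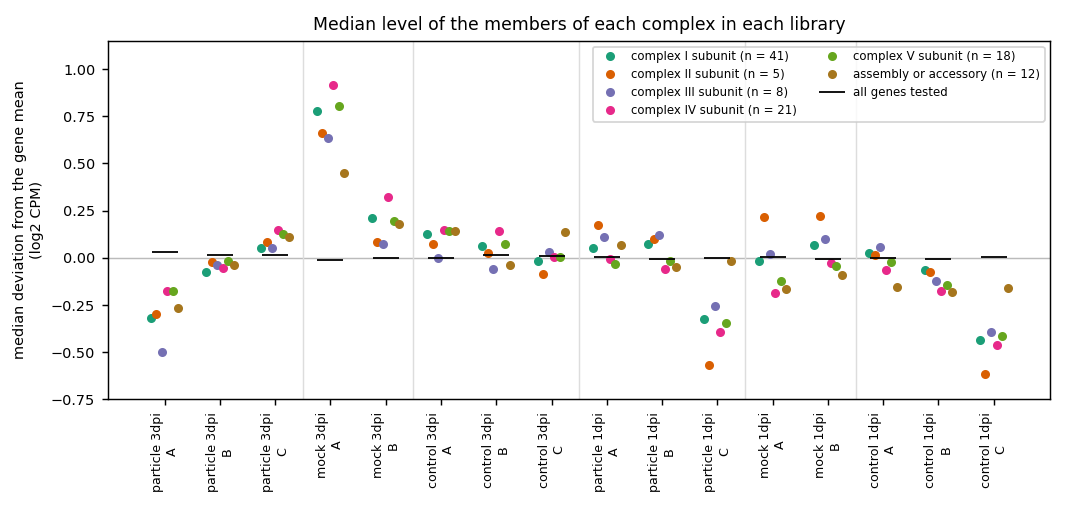
Median deviation of the tested members of each complex from their mean over all libraries (y axis, log2 CPM) in each of the 16 libraries (x axis), with black dashes for all genes tested. Every complex lies highest in mock_3dpi A, with complex IV at 0.92, and complexes I to V lie low in particle_1dpi C and control_1dpi C.

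Particle embryos at 3 dpi held lower levels of 25 of the 105 genes than mock embryos and higher levels of none (edgeR quasi-likelihood test, Benjamini-Hochberg adjusted p under 0.05). That is 23.8% of the members, beside 3.35% of all 23623 genes called lower and 5.3% called higher. The median log2 value of the members was -0.60, beside 0.03 for all genes, and 101 of 105 were below 0. Particle and mock libraries did not overlap for 59 members that were lower with particles, beside 20.4% of all genes. The medians by complex were -0.64 for complex I, -0.54 for II, -0.49 for III, -0.62 for IV, -0.60 for V and -0.44 for the assembly factors.

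The count of calls rested on single libraries. Without mock_3dpi A it was 0 and the median -0.27, without mock_3dpi B 54 and -0.85. In both cases 1 mock library remained, assumed to vary like the other groups, and without mock_3dpi A edgeR called only 1 gene higher and 1 lower among all genes. The medians by complex without mock_3dpi A were -0.31 for complex I, -0.22 for II, -0.20 for III, -0.30 for IV, -0.24 for V and -0.34 for the assembly factors. The value of ndufa6 was then -0.84 and that of ndufb3 -0.71. The count was 0 without particle_3dpi B, 1 (ndufa6) without particle_3dpi A, 10 without either mock_1dpi library, 15 without particle_1dpi B, and 16 without particle_1dpi A, control_1dpi B or control_3dpi B. Among the A and B libraries alone it was 60, and 17 when mock_3dpi A was left out as well. Scaled by total counts, the median of all genes moved to 0.37 and that of the members to -0.21, and ndufa6 and ndufb3 were still called lower while ndufa9b was called higher. All medians by complex stayed below 0 with that scaling.

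**Figure D2:**
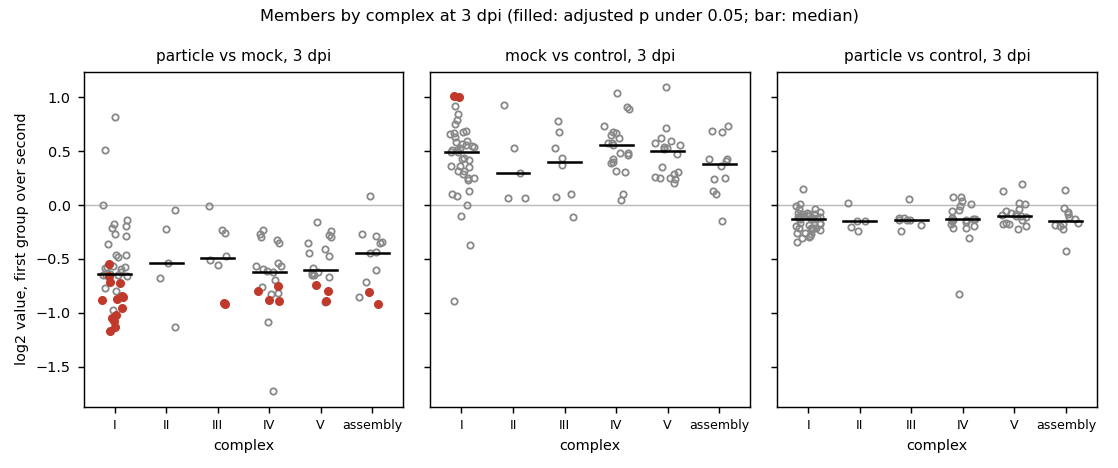
Log2 value of each tested member (points, y axis) by complex (x axis) in 3 comparisons at 3 dpi, filled where the adjusted p was under 0.05, with bars at the medians. Members lie mostly below 0 for particle against mock (25 called), mostly above 0 for mock against control (2 called) and near 0 for particle against control (0 called).

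In complex I, 14 of 41 genes were lower with particles. The LYR-motif accessory subunit gene ndufa6 (ENSDARG00000038028, chromosome 3) stood at 47.1, 51.1 and 68.8 CPM in particle_3dpi A, B and C, 151 and 99.1 in mock_3dpi A and B, and 67.6, 63.8 and 56.1 in control_3dpi A, B and C. Every particle library lay below both mock libraries, with particle_3dpi A and B below the controls and C just above them. Its log2 value of particle over mock was -1.17 (SE 0.21, adjusted p = 0.014), a fall of 55.5%. For ndufb3 (ENSDARG00000075709, chromosome 9), an accessory subunit of the membrane arm in mammals, levels were 36.3, 39.3 and 57.2 in particle, 115 and 72.5 in mock and 50.1, 45.6 and 43.9 in control embryos, with particle over mock at -1.08 (SE 0.22, adjusted p = 0.0175). Here too the mock libraries were the high ones and did not overlap with the others.

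The zinc-binding subunit gene ndufs6 (ENSDARG00000056583, chromosome 19) averaged 35.1 ± 5.41 CPM in particle and 64.01 ± 16.3 in mock embryos, with particle over mock at -0.87 (SE 0.19, adjusted p = 0.0198). For ndufs5 (ENSDARG00000006290, chromosome 19), whose mammalian protein sits on the intermembrane side, the means were 44.8 ± 7.58 and 86.8 ± 25.4 in particle and mock embryos, with -0.96 (SE 0.22, adjusted p = 0.0248). The other 10 called genes of the complex were ndufa2, ndufa3, ndufa4l, ndufa5, ndufa7, ndufa11, NDUFB1, ndufb2, ndufb7 and ndufb9, with log2 values from -1.13 for NDUFB1 to -0.55 for ndufb2. Of the 14 genes, all but ndufa4l code accessory subunits, which in mammals surround the catalytic core.

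The core subunits that carry the flavin, the iron-sulphur clusters and the quinone site held no call: 0 of the 8 tested passed in edgeR, and their median log2 value was -0.22, beside -0.66 for the other 33. With total-count scaling the core median was 0.14, above 0. This division was made after the values were seen and has no test. The gene of the largest core subunit, ndufs1 (ENSDARG00000028546, chromosome 6), stood at 119, 162 and 135 CPM in particle, 185 and 119 in mock and 134, 146 and 138 in control embryos. High in mock_3dpi A and lowest of all in mock_3dpi B and particle_3dpi A, it overlapped between the groups. Its log2 value of -0.14 (adjusted p = 0.742) turned to 0.24 with total-count scaling and 0.21 without mock_3dpi A. The NADH-binding subunit gene ndufv1 stood at 106, 120.5 and 127 in particle and 148 and 118 in mock embryos, again overlapping.

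The paralogs ndufa4 and ndufa4l, counted with complex I by name only, differed in their values. Gene ndufa4l (ENSDARG00000099499, chromosome 3) stood at 171, 171 and 164 CPM in particle, 384 and 237 in mock and 233, 222 and 161 in control embryos, and was called lower with particles than with mock injection (adjusted p = 0.0335). Gene ndufa4 (ENSDARG00000056108, chromosome 12) stood at 64.7, 98.8 and 113 in particle, 119 and 136 in mock and 92.97, 102 and 126 in control embryos and was not called (adjusted p = 0.21). Its particle libraries still lay below both mock libraries, while the controls ranged across both. The counter is not given in the sources used here, so that reads shared by such near copies could have been split between them.

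No gene of complex II was called in edgeR among 5 tested, with 1 at an unadjusted p under 0.05. The flavoprotein gene sdha (ENSDARG00000016721, chromosome 19), which binds succinate, stood at 127, 146 and 107 CPM in particle, 138 and 124 in mock and 131, 128 and 117 in control embryos. The 3 groups overlapped, and the log2 value of -0.05 turned positive without mock_3dpi A, with total-count scaling and with a replicate block. The iron-sulphur subunit gene sdhb (ENSDARG00000075768, chromosome 22) stood at 61.1, 96.5 and 94.1 in particle, 140.3 and 103 in mock and 109, 99.1 and 89.5 in control embryos. The membrane anchor gene sdhc (ENSDARG00000038608, chromosome 2) stood at 41.6, 50.4 and 50.7 in particle, 85.8 and 66.1 in mock and 53.8, 56.02 and 48.1 in control embryos. For both, mock_3dpi A was the high library. For sdhc alone of the pair, both mock libraries lay above all others.

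Complex III held 2 called genes of 8, both small subunits, while the small subunit genes uqcrh and UQCR10 were not called. For uqcrq (ENSDARG00000029064, chromosome 14), a small subunit next to cytochrome b in mammals, levels were 46.3, 54.4 and 59.2 CPM in particle_3dpi, 121 and 80.6 in mock_3dpi and 61.6, 60.7 and 53.7 in control_3dpi libraries, with particle over mock at -0.92 (SE 0.21, adjusted p = 0.0258). For uqcrb (ENSDARG00000011146, chromosome 19), the ubiquinone-binding protein, they were 71.6, 86.9 and 101 in particle, 204 and 122 in mock and 113, 103 and 89.8 in control embryos, with -0.91 (SE 0.25, adjusted p = 0.0423). Mock libraries lay above all others in both genes. The Rieske iron-sulphur protein gene uqcrfs1 (ENSDARG00000007745, chromosome 7) stood at 112, 168 and 166 in particle, 191 and 164 in mock and 178, 164 and 165 in control embryos, and the core protein gene uqcrc1 (ENSDARG00000052304, chromosome 6) at 104, 157 and 156 in particle, 149 and 131 in mock and 145, 141 and 166 in control embryos. Neither was called, and the groups overlapped in both, although mock_3dpi A was the highest library for uqcrfs1.

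In complex IV, cytochrome c oxidase, 4 of 21 genes were lower with particles: cox7b, cox7c, cox4i1 and COX5B (2 of 3). Levels of cox7b (ENSDARG00000098250, chromosome 21), a small transmembrane subunit, were 77.3, 101 and 133 CPM in particle, 231 and 152 in mock and 117, 112 and 117 in control embryos, with particle over mock at -0.88 (SE 0.21, adjusted p = 0.029). For cox7c (ENSDARG00000104537, chromosome 5) they were 68.97, 76.9 and 126 in particle, 206 and 130.3 in mock and 105, 103 and 109 in control embryos, with -0.89 (SE 0.23, adjusted p = 0.0356). In both genes particle and mock libraries did not overlap with TMM scaling, while particle and control libraries did overlap. Particle_3dpi A was lowest, and particle_3dpi C was the particle library nearest to mock_3dpi B. The gene cox4i1 (ENSDARG00000032970, chromosome 18), the common form of the largest nuclear subunit, stood at 220.4, 257 and 267 in particle and 514 and 320.5 in mock embryos, with -0.75 (SE 0.21, adjusted p = 0.0419).

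Other complex IV genes were not called. Levels of cox6a1 (ENSDARG00000022438, chromosome 8) were 183, 199 and 199.7 CPM in particle and 378 and 249.5 in mock embryos, and its log2 value of -0.70 (SE 0.22, adjusted p = 0.0675) missed the threshold although the groups did not overlap. The gene cox5b2 (ENSDARG00000068738, chromosome 13) had the lowest log2 value of all members, -1.73 (adjusted p = 0.135), with 8.25, 7.48 and 7.55 in particle, 25.4 and 26.2 in mock and 18.4, 15.3 and 7.83 in control embryos. All 3 particle libraries lay under 10 CPM, both mock libraries were the high ones, and the controls ran from the particle level to between the groups. It was a member of a paralog family named as a whole.

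The remaining paralog families of complex IV were not called at 3 dpi. Levels of cox6b2 (ENSDARG00000037860, chromosome 16) were 184, 204 and 189.5 in particle, 418 and 237 in mock and 248, 232 and 179 in control embryos, those of cox5aa 128, 146 and 189.8 in particle, 286 and 181 in mock and 171, 169 and 196 in control embryos, and those of cox6c 60.3, 73.2 and 95.8 in particle, 144 and 91.1 in mock and 87.5, 79.8 and 84.4 in control embryos. In each mock_3dpi A was the highest library, and particle_3dpi A lay below both mock libraries. For cox5aa and cox6c particle_3dpi C lay above mock_3dpi B. The paralog cox5ab stood at 69.7, 87.8 and 98.7 in particle and 156 and 97.2 in mock embryos. The gene cox7a3 stood at 40.97, 45.9 and 47.2 in particle and 55.1 and 52.98 in mock embryos, and COX7A2 (2 of 2) at 10.9, 10.9 and 10.2 in particle and 15.3 and 15.6 in mock embryos, and in both of these the groups did not overlap while mock_3dpi A and B were close to each other. The low gene ndufa4l2a, of the ndufa4 family, stood at 2.82, 2.67 and 1.87 in particle and 4.899 and 2.603 in mock embryos.

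Complex V held 3 called genes of 18. These code small subunits, but other small subunit genes, among them atp5l and ATP5J2, were not called. A link of the calls with subunit size was not tested. The gene atp5e (ENSDARG00000095897, chromosome 6), the epsilon subunit of the central stalk, stood at 52.2, 53.2 and 77.01 CPM in particle, 130.3 and 81.1 in mock and 73.6, 67.3 and 64.8 in control embryos, with particle over mock at -0.80 (SE 0.20, adjusted p = 0.0293). Particle_3dpi C lay just below mock_3dpi B, and particle_3dpi A and B lay below the controls. The other called genes were atp5ib and atp5j, a subunit of the peripheral stalk, with log2 values of -0.74 and -0.89 for particle over mock.

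The catalytic genes of the ATP synthase were not called. For atp5b (ENSDARG00000070083, chromosome 11), the beta subunit that forms ATP, levels were 1028, 1213 and 1100.3 CPM in particle, 1625 and 1116 in mock and 1140.1, 1201 and 1089.6 in control embryos. For atp5a1 (ENSDARG00000010149, chromosome 21), the alpha subunit, they were 862, 942 and 858 in particle, 1277 and 876 in mock and 929.8, 922 and 768 in control embryos. In both, mock_3dpi A was the 1 high library and mock_3dpi B lay within the range of the other groups. Their log2 values of -0.30 and -0.28 for particle over mock turned to 0.08 and 0.10 with total-count scaling. The c-ring gene atp5g3b (ENSDARG00000009447, chromosome 6), with 409, 429 and 519 in particle and 880.2 and 562 in mock embryos, had a log2 value of -0.67 (SE 0.20, adjusted p = 0.0507) and groups that did not overlap. The other c-ring genes, atp5g1 with 117, 196 and 197 in particle and 267 and 205 in mock embryos and atp5g3a with 106, 145 and 221 in particle and 244 and 185 in mock embryos, were not called.

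**Figure D3:**
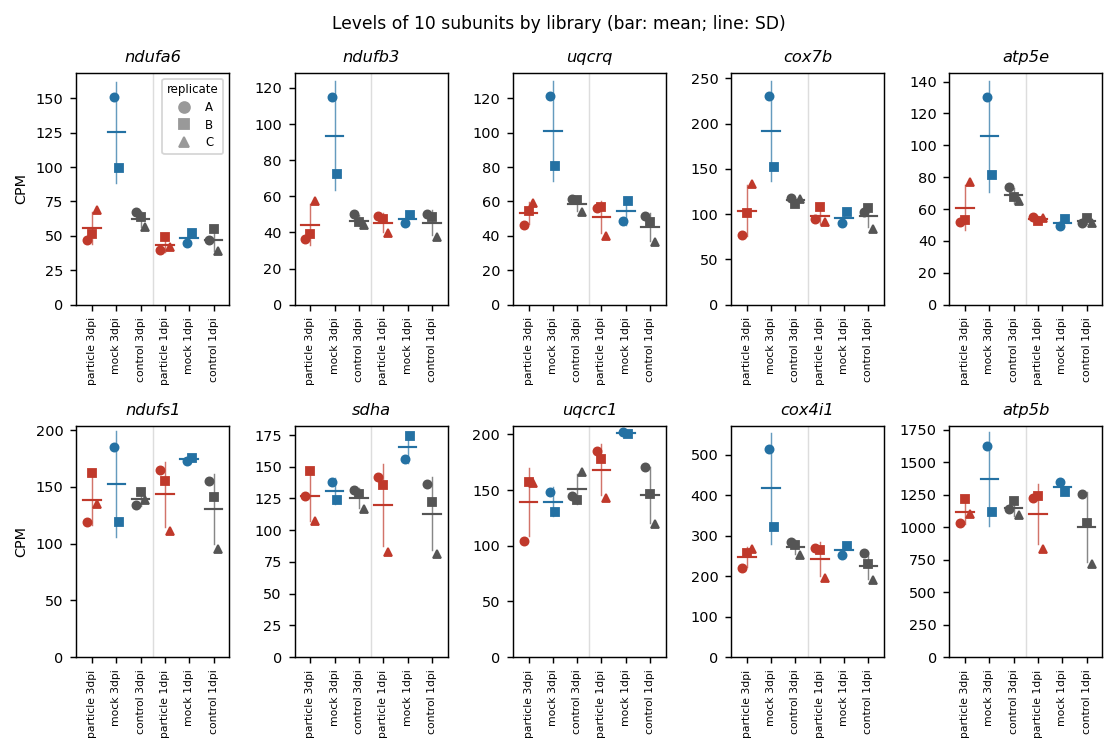
CPM (y axes, from 0) of 10 subunit genes in each library (points, by replicate) of the 6 groups (x axes), with group means as bars and SD as lines. In ndufa6, ndufb3, uqcrq, cox7b, atp5e and cox4i1 both mock_3dpi libraries lie above the other libraries of that day, while in ndufs1, sdha, uqcrc1 and atp5b they lie among them or only A is high.

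Among the 12 assembly and accessory factors, ndufaf5 and ndufaf6, needed in mammals to build complex I, were lower with particles. Levels of ndufaf5 (ENSDARG00000061629, chromosome 1) were 12.98, 14.2 and 16.8 CPM in particle, 30.6 and 20.6 in mock and 19.9, 12.6 and 15.4 in control embryos (adjusted p = 0.0443). Those of ndufaf6 (ENSDARG00000053652, chromosome 16) were 5.01, 5.93 and 5.62 in particle, 13.2 and 7.68 in mock and 7.13, 6.597 and 5.19 in control embryos (adjusted p = 0.034). Both mock libraries lay above all particle and control libraries. The early complex I assembly gene ndufaf1 stood at 27.8, 35.1 and 40 in particle and 52.4 and 41.3 in mock embryos, and sdhaf2, which attaches the flavin to sdha, at 15.7, 16.5 and 14.9 in particle and 19.2 and 20.7 in mock embryos, neither of them called.

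Mock embryos at 3 dpi held higher levels than control embryos of 2 members, ndufa6 and ndufb3, and lower levels of none. That is beside 0.428% of all genes called higher and 1.19% called lower. The log2 values of mock over control were 1.00 (SE 0.21, adjusted p = 0.0438) for ndufa6 and 1.01 (SE 0.22, adjusted p = 0.0443) for ndufb3. The median of the members was 0.47, beside -0.01 for all genes, with 99 of 105 above 0 and 58 not overlapping in that direction, beside 18.3% of all genes. Medians ran from 0.30 in complex II, which was -0.05 with total-count scaling, to 0.56 in complex IV. Particle against mock and mock against control share the 2 mock libraries, so that the values of one are not independent of the other.

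The count for mock against control was 35 without mock_3dpi B and 0, with a median of 0.16, without mock_3dpi A. It was 4 without control_1dpi C, 2 without particle_1dpi C or particle_3dpi C, and 0 without any 1 of the other 11 libraries. Scaled by total counts it was 0, with the median of all genes at -0.34 and that of the members at 0.11.

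Between particle and control embryos at 3 dpi edgeR called 0 members, and 0 were at an unadjusted p under 0.05, and DESeq2 called 0. Of all genes 0.0% were called higher and 0.0% lower. The median log2 value was -0.13, beside 0.00 for all genes, and 92 of 105 members were below 0. Particle and control libraries did not overlap for 1 member that was lower, beside 2.58% of all genes, and for 0 that were higher, beside 3.16%. The smallest p belonged to ndufs6, with 29.5, 35.4 and 40.3 CPM in particle and 44.6, 46.6 and 38.7 in control embryos and particle over control at -0.30 (SE 0.17, adjusted p = 1). Next were ndufa7, with 17.2, 21.9 and 28.7 in particle and 27.4, 26.9 and 28.9 in control embryos, and the acyl carrier protein gene ndufab1b, with 27.9, 44.9 and 48.6 in particle and 48.8, 48.5 and 48.1 in control embryos. In each of these, particle_3dpi A was the lowest library and particle_3dpi C lay within the range of the controls. Without particle_3dpi A the median over the members was -0.03.

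At 1 dpi, 0 members were called in any comparison by edgeR or DESeq2. For particle against mock 0 were at an unadjusted p under 0.05, for particle against control 1, and for mock against control 3. Of all genes, 0.0% were called higher and 0.0% lower for particle against mock, 0.00423% and 0.0% for particle against control, and 0.0% and 0.0% for mock against control. The medians of the members were -0.08, 0.10 and 0.15 in these 3 comparisons, beside 0.01, -0.01 and -0.03 for all genes. Libraries did not overlap for 17 members lower in particle than in mock embryos, beside 13.2% of all genes, and for 25 higher in mock than in control embryos, beside 19.5%. Particle and control libraries did not overlap for 3 members that were higher, beside 2.82%, and 0 that were lower, beside 2.7%.

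The members with the smallest p in the comparisons with mock embryos at 1 dpi missed the threshold, although their libraries did not overlap between the groups compared. Levels of ndufaf5 were 13.2, 10.8 and 14.4 CPM in particle_1dpi A, B and C and 8.29 and 10.4 in mock_1dpi A and B, giving a log2 difference of 0.46 (SE 0.23, adjusted p = 0.921). For sdha they were 142, 135 and 83.02 in particle and 156 and 174 in mock embryos, with -0.46 (SE 0.24, adjusted p = 0.921), and 136, 122 and 80.9 in controls, with mock over control at 0.55 (SE 0.24, adjusted p = 0.435). For sdha the mock libraries lay above all particle and control libraries, and particle_1dpi C and control_1dpi C were the low ones. The core gene uqcrc1 stood at 203 and 200.3 in mock and 171, 146 and 119.9 in control embryos, with 0.47 (SE 0.20, adjusted p = 0.435), and the paralog ndufa9b at 35.8 and 34.3 in mock and 30.1, 24.4 and 18.5 in control embryos, with 0.53 (SE 0.23, adjusted p = 0.435).

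Library control_1dpi C differed from control_1dpi A and B in more than 1 measure. Its red cell markers summed to 3779 CPM, beside 1063 and 1206 in A and B. Cytosolic ribosomal protein genes took 6.57% of its counts, beside 4.11% and 4.08%. Particle_1dpi C differed from particle_1dpi A and B in the same direction. Its red cell markers summed to 2054 CPM, beside 1108 and 737, and cytosolic ribosomal protein genes took 5.17%, beside 4.23% and 4.09%. Among the members, cox4i1l stood out in control_1dpi C. The gene cox4i1l (ENSDARG00000012388, chromosome 24), a paralog of cox4i1, stood at 1.86, 1.62 and 2.82 CPM in particle_1dpi and 2.64, 1.55 and 19.2 in control_1dpi A, B and C. In the other 15 libraries it lay between 1.52 (mock_3dpi A) and 4.47 (control_3dpi B). The log2 value of particle over control was -1.91 (SE 0.72, adjusted p = 1). Without control_1dpi C it lay within 0.01 of 0. Levels of cox6b1 were 43.3, 36.5 and 43.7 in particle_1dpi and 41.2, 48.9 and 73.7 in control_1dpi libraries, and those of ndufa4 were 119, 99.2 and 114 in particle_1dpi and 108, 143 and 176 in control_1dpi libraries, with control_1dpi C the highest for both.

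Between the times, mock embryos gave the most calls. At 3 dpi 34 members were higher than at 1 dpi and 1, ndufa9b, was lower, beside 11.1% and 12.5% of all genes. The median was 0.55, beside -0.01 for all genes, and 71 members did not overlap in that direction, beside 33.5% of all genes. Called higher were 14 genes of complex I, 0 of complex II, 2 of complex III, 7 of complex IV, 8 of complex V and 3 assembly factors. The count of 35 calls was 3 without mock_3dpi A (median 0.24), 2 without mock_1dpi A (median 0.51) and 10 without mock_1dpi B (median 0.59), each time with 1 library left in a mock group. With total-count scaling 7 were higher and 6 lower, with the median of all genes at -0.45 and that of the members at 0.07. By complex, total-count scaling left 0.23 in complex IV and 0.09 in complex V, and gave -0.05 in complex II, -0.09 in complex III and -0.08 in the assembly factors.

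Levels of ndufa6 were 151 and 99.1 CPM in mock_3dpi A and B and 44.5 and 51.98 in mock_1dpi A and B, giving a log2 difference of 1.37 (SE 0.24, adjusted p = 0.00227). For ndufaf5 they were 30.6 and 20.6 at 3 dpi and 8.29 and 10.4 at 1 dpi, with 1.46 (SE 0.26, adjusted p = 0.00246). Both genes kept a call under every alternative run, 23 in all. For atp5e the log2 value was 1.04 (SE 0.22, adjusted p = 0.0054) and for cox7c 1.22 (SE 0.26, adjusted p = 0.00604). The gene ndufa9b (ENSDARG00000094312, chromosome 10) went the other way, with 19.1 and 14.8 at 3 dpi and 35.8 and 34.3 at 1 dpi and a log2 difference of -1.05 (SE 0.26, adjusted p = 0.0117), while its paralog ndufa9a stood at 127 and 81.2 at 3 dpi and 95.2 and 102 at 1 dpi.

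In control embryos edgeR called 0 members between 3 and 1 dpi, 12 were at an unadjusted p under 0.05, and DESeq2 called 3 (cox4i2, cox6a2 and cox7a1). Of all genes 1.19% were called higher at 3 dpi and 0.203% lower. The median over the members was 0.23, beside 0.00 for all genes, with 92 of 105 above 0 and 32 not overlapping in that direction, beside 12.5% of all genes. Over the alternatives the median of the members ran from 0.14 to 0.31. Without particle_3dpi C edgeR called 1 member, cox7a1.

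In particle embryos edgeR also called 0 between the times, with 7 at an unadjusted p under 0.05 and 4 called by DESeq2. Of all genes 1.56% were called higher and 0.508% lower, and the median over the members was 0.01. Libraries with the same letter deviated together in these 2 groups, with correlations of 0.406 for A, 0.112 for B and 0.542 for C. Particle_1dpi A with particle_3dpi B gave 0.257, above B with B. With replicate as a block 5 members were called: cox7a1, cox6a2, cox8b, COX5B (1 of 3) and ATP5J (3 of 3). Leaving out control_1dpi C gave 4 calls, and leaving out control_1dpi A, control_3dpi A or control_3dpi C gave 1, cox7a1.

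Several paralogs of complexes IV and V had high log2 values over time in all 3 treatment groups, though not all of them were the highest. In control embryos cox5b2, also of complex IV, had 1.47 (SE 0.67, adjusted p = 0.269). The complex I gene ndufs8b had 0.87 (SE 0.67, adjusted p = 0.523), above the 0.68 of COX5B (1 of 3). In mammals COX7A1 and COX6A2 are the forms of heart and skeletal muscle, COX8B is such a form in rodents, and COX4I2 is known from the lung. The reference symbol of the zebrafish gene cox6a2 is COX6A1, so that its name does not settle which form it is. Levels of cox7a1 (ENSDARG00000069464, chromosome 15) were 8.604, 6.54 and 17.5 CPM in particle_3dpi A, B and C and 2.62, 3.37 and 3.43 in particle_1dpi A, B and C. In mock embryos they were 16 and 11.3 at 3 dpi and 3.66 and 5.12 at 1 dpi, and in control embryos 5.39, 9.504 and 15.99 at 3 dpi and 4.03, 2.48 and 1.73 at 1 dpi. Every 3 dpi library lay above every 1 dpi library, and at 3 dpi the C library was the highest of the particle and of the control group. The log2 values of 3 over 1 dpi were 1.80 (SE 0.44, adjusted p = 0.0506) in particle, 1.64 (SE 0.53, adjusted p = 0.0392) in mock and 1.93 (SE 0.45, adjusted p = 0.0512) in control embryos.

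For cox6a2 (ENSDARG00000054588, chromosome 3) levels were 9.73, 10.5 and 7.28 CPM at 3 dpi and 3.86, 2.36 and 0.387 at 1 dpi in particle embryos. In mock embryos they were 22.97 and 9.11 at 3 dpi and 3.31 and 3.61 at 1 dpi, and in control embryos 10.97, 11.2 and 4.18 at 3 dpi and 3.101, 3.21 and 0.663 at 1 dpi. Every 3 dpi library lay above every 1 dpi library. Here the C libraries were the low ones of their groups, opposite to cox7a1 at 3 dpi. The log2 value was 2.07 (SE 0.66, adjusted p = 0.117) in particle, 2.21 (SE 0.80, adjusted p = 0.059) in mock and 1.95 (SE 0.67, adjusted p = 0.158) in control embryos. For cox8b (ENSDARG00000097209, chromosome 25) levels were 15.8, 15.2 and 7.28 at 3 dpi and 9.44, 4.31 and 1.27 at 1 dpi in particle and 17.7, 18.7 and 7.01 at 3 dpi and 5.74, 6.31 and 1.94 at 1 dpi in control embryos, again with C lowest, so that the times overlapped in particle embryos. The log2 value of cox8b was 1.65 (SE 0.60, adjusted p = 0.18) in controls.

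For cox4i2 (ENSDARG00000022509, chromosome 23) levels were 116 and 63.8 CPM in mock_3dpi and 23.3 and 25.8 in mock_1dpi libraries, giving a log2 difference of 1.87 (SE 0.41, adjusted p = 0.00641). In particle embryos they were 49.1, 35.2 and 42.4 at 3 dpi and 23.1, 26.9 and 19.9 at 1 dpi, with 0.86 (SE 0.33, adjusted p = 0.18), and in control embryos 37.4, 42.9 and 50.7 at 3 dpi and 24.7, 28.96 and 9.44 at 1 dpi, with 1.06 (SE 0.33, adjusted p = 0.121). No 3 dpi library overlapped with a 1 dpi library in this gene. The complex V paralog ATP5J (3 of 3) (ENSDARG00000089853, chromosome 1) had 1.99 (SE 0.53, adjusted p = 0.0173) in mock, 1.46 (SE 0.43, adjusted p = 0.0965) in particle and 1.18 (SE 0.44, adjusted p = 0.185) in control embryos. COX5B (1 of 3) (ENSDARG00000011208, chromosome 8) had 1.11 (SE 0.26, adjusted p = 0.00988) in mock, 0.86 (SE 0.21, adjusted p = 0.0545) in particle and 0.68 (SE 0.21, adjusted p = 0.13) in control embryos.

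The paralogs set beside them as pairs gave smaller values over time in control embryos. The genes of the first set were the 6 members of smallest p in this comparison. Smaller values in their partners follow in part from that choice. The gene cox5b2, with the reference symbol COX5B, was not set in a pair and had 1.47, above both COX5B genes that were. The log2 value of 3 over 1 dpi was 0.25 for cox7a2a, 0.33 for cox6a1, 0.15 for cox8a, 0.27 for cox4i1, 0.28 for COX5B (2 of 3) and 0.48 for atp5j, none called. Levels of cox4i1, for example, were 285, 278 and 252 CPM at 3 dpi and 258, 229 and 191 at 1 dpi in controls. The difference between the members of a pair was not tested. Summed markers of skeletal muscle were 106129, 88010.1 and 77064 CPM at 3 dpi and 78214, 61318 and 35585 at 1 dpi in controls, and those of the heart without ttna 60.97, 87.3 and 52.4 at 3 dpi and 101, 61.8 and 29.3 at 1 dpi, with the C library lowest each time. Their part in the values of the paralogs was not tested.

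**Figure D4:**
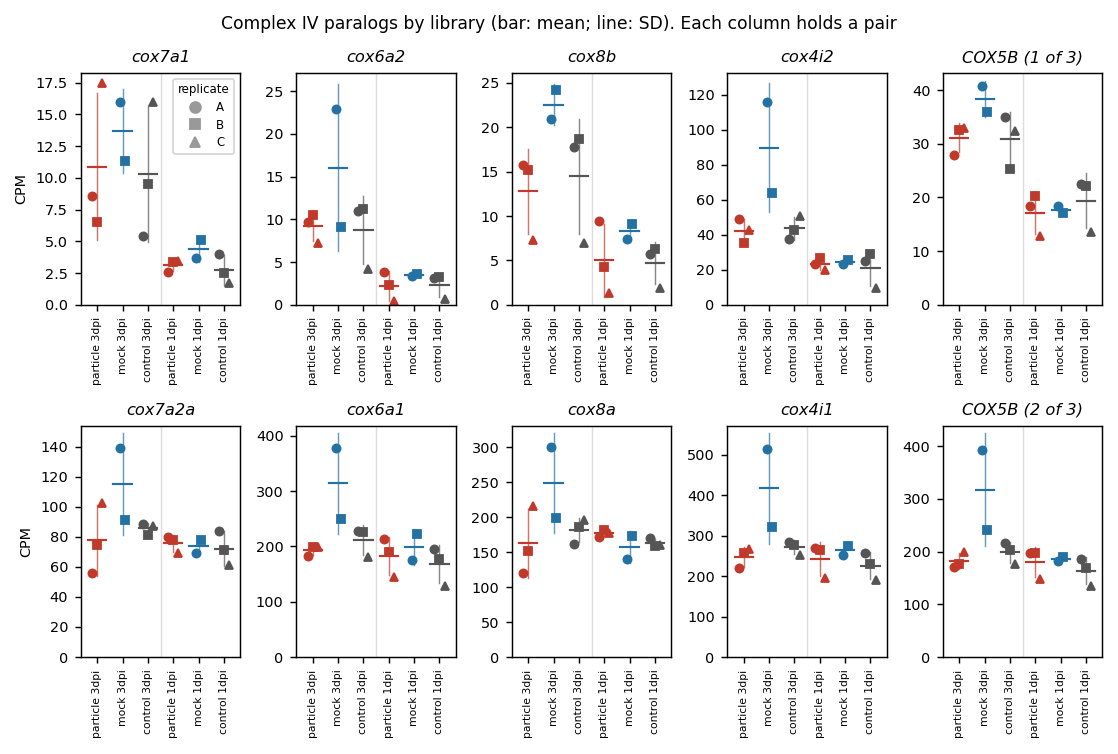
CPM (y axes, from 0) of 5 pairs of complex IV paralogs in each library (points, by replicate) of the 6 groups (x axes), with the members of a pair above each other, group means as bars and SD as lines. The upper paralogs lie higher at 3 dpi in every treatment group, as cox4i2 with 37.4, 42.9 and 50.7 CPM in control_3dpi and 24.7, 28.96 and 9.44 in control_1dpi shows, and the lower ones lie high mainly in mock_3dpi A.

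Whether the difference between particle and mock embryos was another at 3 dpi than at 1 dpi was tested as an interaction, and edgeR called 0 members, with 31 at an unadjusted p under 0.05 and 8 called by DESeq2. Of all genes 0.00423% were called lower and 0.0% higher. The median was -0.56, and it ran from -0.78 to -0.19 over the alternatives. The smallest p belonged to ndufaf5, with -1.26 (SE 0.33, adjusted p = 0.0723), ndufs6, with -0.98 (SE 0.27, adjusted p = 0.079), and ndufa7, with -1.03 (SE 0.30, adjusted p = 0.0906). The count was 23 among the A and B libraries, 25 without mock_3dpi B, 4 without particle_3dpi C and 1 without control_1dpi C. For the same test of mock against control 0 members were called by edgeR and by DESeq2, with 12 at an unadjusted p under 0.05 in edgeR. Beside them 0.0% of all genes were called higher and 0.0% lower, and ndufa6 gave 0.96 (SE 0.30, adjusted p = 0.111). The median of the members ran from -0.05 to 0.60 over the alternatives, on both sides of 0. Without mock_3dpi B 5 were called.

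Other gene lists give the setting of the 3 dpi difference between particle and mock embryos, where 3.35% of all genes were called lower and 5.3% higher. Without mock_3dpi A none of the genes in these lists was called by edgeR. With total-count scaling the medians of the assembly factors outside the rule and of the citric acid cycle were 0.02 and 0.15, above 0. That of the regulators of mitochondrial biogenesis was 0.22, beside -0.11 with TMM. Of the assembly factors outside the rule 0 were then called lower and 1 higher. Of the chain coded by mitochondrial DNA 1 was then called lower. Of 13 genes of the chain coded by mitochondrial DNA, 3 were lower with particles, among them mt-co2, the oxidase subunit that receives electrons from cytochrome c, with -0.94 (SE 0.22, adjusted p = 0.0261), and the median was -0.62 (-0.69 without mock_3dpi A). Their summed level was 35559, 42371 and 38779 CPM in particle_3dpi, 72169 and 65359.8 in mock_3dpi and 50922, 41550.3 and 35512 in control_3dpi libraries. Per 100 counts of these genes, particle libraries held 23.6, 23.5 and 27.1 counts of the nuclear members, mock libraries 23.1 and 17.2 and control libraries 21.1, 25.1 and 27.9. The ratio was lowest in mock_3dpi B. Of 43 assembly factors and carriers outside the rule, 8 were lower and none higher (median -0.37, -0.19 without mock_3dpi A), among them surf1, an oxidase assembly factor, with -0.88 (SE 0.19, adjusted p = 0.0204), and atpif1a, an inhibitor of the ATP synthase, with -0.94 (SE 0.19, adjusted p = 0.0179).

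Of 76 mitochondrial ribosomal protein genes 14 were lower (median -0.51, -0.26 without mock_3dpi A). Of 85 cytosolic ones 32 were lower (median -0.87, -0.34 without mock_3dpi A). DESeq2 called 25 of the mitochondrial and 68 of the cytosolic ones lower and 0 of either higher. With total-count scaling 0 of the mitochondrial and 1 of the cytosolic ones were called lower, with medians of -0.12 and -0.46. Cytosolic ribosomal protein genes summed to 51308, 47235 and 55490.4 CPM in particle and 122935 and 64703 in mock embryos. In edgeR 0 and in DESeq2 0 of 18 citric acid cycle genes were called, with 6 at an unadjusted p under 0.05 in edgeR. Their median was -0.22 (-0.02 without mock_3dpi A). Glycolysis had 1 of 27 called, pfkla, which was higher, with a median of -0.43 (-0.13 without mock_3dpi A). DESeq2 called 1 glycolysis gene higher and 2 lower. Among 18 regulators of mitochondrial biogenesis 2 were higher with particles, esrra with 1.44 (SE 0.34, adjusted p = 0.0269) and ppargc1a with 1.19 (SE 0.32, adjusted p = 0.0396), and 1 was lower, yy1a with -0.71 (SE 0.18, adjusted p = 0.0316). Without mock_3dpi A these values were 0.98 for esrra, 0.66 for ppargc1a and -0.46 for yy1a. In mammals ESRRA and PPARGC1A raise transcription of respiratory chain genes.

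Of the marker lists of cell types, those of neurons and red cells held 2 calls each. Of 21 skeletal muscle markers 1 was called, mylpfa, with -1.09 (SE 0.23, adjusted p = 0.0204), and the median was -0.68 (-0.15 without mock_3dpi A). Their sum was 85416, 90062 and 79744 CPM in particle and 190775 and 111162 in mock embryos. DESeq2 called 4 skeletal muscle markers lower and 0 higher. Red cell markers had 2 of 6 called, both higher with particles, and summed to 1873, 1427 and 1741 in particle and 687 and 476 in mock embryos. Neuron markers had 2 of 9 called, both lower, and 3 of 9 lay above 0. Their sums were 2828, 2961 and 3395 in particle and 3863 and 3792 in mock embryos. DESeq2 called 4 of them lower and 1 higher, and with total-count scaling 0 were called. Heart markers summed to 4687, 4751 and 2632 in particle and 4005 and 3920.4 in mock embryos, nearly all of it the titin gene ttna, which skeletal muscle also expresses. Without ttna they summed to 131, 106 and 49.8 in particle and 87.3 and 55.8 in mock embryos. Liver markers summed to 4806, 2677 and 742 in particle and 553 and 1867 in mock embryos, with 0 of 9 and 0 of 10 called by edgeR, 0 of either at an unadjusted p under 0.05, and 0 of the heart and 0 of the liver markers called by DESeq2. In edgeR 9 of 9 heart, 10 of 10 liver and 6 of 6 red cell markers lay above 0, with medians of 0.71, 1.32 and 1.57. Without mock_3dpi A these medians were 0.77, 0.65 and 1.83. The median of the neuron markers was -0.45 (-0.38 without mock_3dpi A). The heart gene nppb was at 0 in 7 libraries and nppa in 1. The part of these cell types and of ribosomal protein genes in the difference of the respiratory chain genes was not tested.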

How the data were processed

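Gene counts from 16 RNA-seq libraries were used. The count tables, deposited by the authors, hold whole read counts per gene. They are listed under the unit of expected counts only because each deposited column ends in a size factor that is not whole. Per the submitters' processing notes, Bowtie2, SAMtools, DESeq and the zebrafish build GRCz10 were used, with no versions and no counter given. That line and a blank line before it, which name no gene, were left out. From the counts, genes passing edgeR's filter (10 counts in enough libraries, 15 in all) were fitted in 1 model over the 6 groups with TMM factors and tested by quasi-likelihood F tests, adjusted over all 23623 genes (edgeR 4.0.16, R 4.3.3). Alternatives were DESeq2 1.42.0, RLE and total-count scaling, no filter, a replicate block, A and B libraries only, libraries of 1 time only, and leaving out each library. The code was tested on simulated counts.

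The members, gene lists and tests were chosen with earlier results of these data known. Genes were named by 3 rules: the 2 members of each role with the highest mean level, up to 4 called members per direction and comparison by smallest p or otherwise the 3 with the smallest p, and all members of the paralog families of cox4 to cox8, ndufa4 and atp5g. Others were added for their role after their values were seen. A reference symbol was found for 103 members by gene identifier. It was not always the symbol of the count tables, as for cox6a2 (COX6A1), cox7a3 (COX7A2L) and ATP5SL (dmac2). Replicate letters were checked as pairs by correlating deviations from the group means. Every pair exceeded 0.1 for particle_1dpi with control_1dpi (0.305 to 0.745) and for particle_3dpi with particle_1dpi (0.112 to 0.542), but in no other pair of groups compared. It did for particle_3dpi with control_1dpi (0.214 to 0.498), which were not compared. Unlike letters could correlate as well. Control_1dpi A with particle_1dpi B gave 0.310, above the 0.305 of B with B, so that these values do not show that letters mark pairs. C with C was positive in every pair of groups that hold C libraries, from 0.321 to 0.745. Mock has no C library, so that comparisons with mock set groups of A, B and C against A and B. The fits on A and B libraries only leave the C libraries out. In 1 header (particle_1dpi B) and in 1 other label (control_1dpi C) the replicate named is not that of the title, and titles were followed. No sequences are printed, since no reference sequence was used here.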

Additional observations from a re-analysis of the deposited data

How the results depend on the processing

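The counts of members called depended on the scaling and on single libraries. For particle against mock at 3 dpi the 25 calls became 3 with total-count scaling, 43 with DESeq2, 60 with the A and B libraries only and 0 with the libraries of that day only. Of all 23623 genes DESeq2 called 1809 higher and 1481 lower in this comparison. With total-count scaling 2898 of all genes were called higher and 108 lower. For mock against control at 3 dpi the 2 calls became 0 with total-count scaling, 10 with DESeq2, 1 with the A and B libraries, 0 with these less mock_3dpi A and 0 with the libraries of that day. For mock embryos between the times the 35 calls became 13 with total-count scaling and 54 with the A and B libraries. Starting from 0, particle embryos between the times gave 4 calls with DESeq2, 2 with the A and B libraries and 10 with these less mock_3dpi A. Control embryos gave 3, 2 and 4 under the same settings and 1 with no filter. The interaction of particle against mock gave 8, 23 and 8. The settings of A and B libraries less mock_3dpi A and of lower-case symbols only were chosen after seeing the data.

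With a replicate block the calls were 5 for mock against control at 3 dpi, 5 for particle and 4 for control embryos between the times and 3 for the interaction of particle against mock. It moved no other count by over 1.5 times. Leaving out 1 library gave 0 to 54 calls for particle against mock at 3 dpi, 0 to 35 for mock against control at 3 dpi, 2 to 51 for mock, 0 to 1 for control and 0 to 4 for particle embryos between the times, 0 to 25 and 0 to 5 for the interactions, and 0 elsewhere.

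For particle against mock at 3 dpi 28 of the 105 members were above 0 with total-count scaling, beside 4 with TMM. Among the genes examined one by one 4 turned positive. With total-count scaling atp5a1 was 0.096, atp5b 0.075, ndufs1 0.24 and sdha 0.30. With the A and B libraries less mock_3dpi A they were 0.054, 0.017, 0.25 and 0.16. Leaving out 1 library gave -0.52 (without mock_3dpi B) to 0.014 (without mock_3dpi A) for atp5a1, -0.41 to 0.21 for ndufs1 without the same libraries, and -0.16 (without particle_3dpi B) to 0.064 (without particle_3dpi C) for sdha. For sdha the value was 0.11 with the block and 0.071 with the A and B libraries. The causes were not tested. With 2 mock libraries per time, 1 of them apart, the mock level is known poorly.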
